A study of Mus musculus with 12 samples.

Results

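The genes described here make, remodel and break down sphingolipids, the family of membrane lipids that includes ceramide, sphingomyelin and the gangliosides. They are 44 of the 24421 genes in the deposited table, chosen by symbol, with the myelin-linked enzymes Ugt8a, Fa2h and Gal3st1 left out of the list. Of the 44, 20 act in synthesis, 17 in breakdown, and 7 were placed in neither arm, namely the 3 Ormdl regulators and the 4 sphingosine kinases and phosphatases. A total of 43 reached a normalized count of 10 in 3 or more libraries and were tested. The remaining gene, Cers1, a ceramide synthase of neurons, was listed at 0 in all 12 libraries, as was Gdf1, whose exons overlap those of Cers1 on the same strand, so no level or change is given for Cers1.

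Cells expressing green fluorescent protein (GFP) were sorted from the dissociated cerebellum of Aldh1l1-GFP mice at 4 ages, with 3 libraries each, and P1, P7, P14 and P28 name the postnatal day. All 12 libraries carry the same genotype, and per the study's methods the line was kept on a C57/BL6J background and both sexes were used, so age is the only difference the labels give between the groups. GFP in this line is driven by the promoter of Aldh1l1, an astrocyte enzyme, so each group holds whichever cells had this promoter active and passed the gate. The labels number the libraries as replicates without saying that they came from separate animals, and the p-values below therefore measure the spread between these libraries, which may be technical.

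Depth lay between 6399499 and 14733985 reads on genes per library. All 10 genes of an astrocyte marker list had reads at each time point, and their summed normalized counts lay between 53806 and 68629 at P1, between 27413 and 50682 at P7, between 146266 and 182765 at P14, and between 346478 and 404074 at P28. Markers of other cells were also present. The 10 oligodendrocyte markers, led by Mbp, summed to between 1570 and 2646 at P1, 22398 and 34556 at P7, 349451 and 397877 at P14, and 105832 and 146521 at P28. The 10 neuron markers ranged from 2238 to 5372 at P1, with Gabra6 at 0, and from 8328 to 10943 at P7. They ranged from 24805 to 46467 at P14 and from 14875 to 19296 at P28. The 6 choroid plexus markers, led by Ttr, ran from 323 to 765 at P1 and from 47993 to 127766 at P7. Their sums ran from 880 to 109117 at P14 and from 17749 to 182616 at P28. In each P7 library the choroid plexus sum was above the astrocyte sum. The 7 oligodendrocyte precursor markers ran from 18038 to 20155 at P1 and from 7383 to 8711 at P28. The 10 microglia markers stayed between 568 and 3344 in all libraries. In bulk RNA of this kind, a change in the share of a cell type and a change in RNA per cell cannot be told apart.

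Sphingolipids are built on a sphingoid base that serine palmitoyltransferase makes from serine and palmitoyl-CoA. A reductase, the ceramide synthases and a desaturase turn this base into ceramide, from which sphingomyelin, glucosylceramide and the sialic acid-bearing gangliosides are formed. In lysosomes, hydrolases aided by small activator proteins take the same lipids apart again, down to ceramide and sphingosine. Sphingosine can be phosphorylated to sphingosine 1-phosphate, a ligand of cell-surface receptors. Brain is rich in these lipids, and inherited loss of the breakdown enzymes or activators causes lysosomal storage diseases of the nervous system.

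Promoters of 4 members are shown because the expression of these genes carries the main patterns below. Cers6 and Degs1 moved in opposite directions between P7 and P14 and both hold the hexamer CACGTG, an E-box, just before the RefSeq start site. Psap and Gm2a both fell to P7 and rose to P14, and do not hold it in the stretch shown. The hexamer is its own reverse complement, so both strands are searched at once, and it is in capitals where present. Sequences are from RefSeq on GRCm38.p6, 5′ to 3′ on the strand of the gene, for the 250 bases before the start site (249 for Psap, to leave out exonic sequence). Cers6 lies at chr2:68861191-68861440 on the plus strand, Degs1 at chr1:182282196-182282445 on the minus strand, Psap at chr10:60277378-60277626 on the plus strand and Gm2a at chr11:55097735-55097984 on the plus strand. In the GENCODE M21 annotation the Degs1 gene begins further upstream, at 182282804, so the stretch shown lies inside that gene model.
Cers6: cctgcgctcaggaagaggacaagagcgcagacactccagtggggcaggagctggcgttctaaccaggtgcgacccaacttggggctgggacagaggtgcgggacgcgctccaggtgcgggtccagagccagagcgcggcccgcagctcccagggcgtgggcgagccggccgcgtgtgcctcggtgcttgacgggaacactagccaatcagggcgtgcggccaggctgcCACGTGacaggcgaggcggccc
Degs1: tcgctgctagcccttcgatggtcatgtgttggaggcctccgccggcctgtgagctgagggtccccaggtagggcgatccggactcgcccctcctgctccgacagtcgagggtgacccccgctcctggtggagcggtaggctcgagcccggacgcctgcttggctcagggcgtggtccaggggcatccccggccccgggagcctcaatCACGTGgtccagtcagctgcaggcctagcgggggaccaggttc
Psap: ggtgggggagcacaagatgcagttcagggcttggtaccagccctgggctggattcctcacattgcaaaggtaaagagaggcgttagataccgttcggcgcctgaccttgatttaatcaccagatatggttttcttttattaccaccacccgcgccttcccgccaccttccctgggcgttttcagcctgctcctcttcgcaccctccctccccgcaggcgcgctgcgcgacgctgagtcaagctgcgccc
Gm2a: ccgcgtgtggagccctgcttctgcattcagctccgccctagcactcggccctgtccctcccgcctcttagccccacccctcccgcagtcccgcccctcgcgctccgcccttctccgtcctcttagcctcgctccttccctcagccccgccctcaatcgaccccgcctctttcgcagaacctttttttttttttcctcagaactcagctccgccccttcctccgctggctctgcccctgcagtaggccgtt

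Promoters were listed for 40 of the 44 members, each taken from 250 bases before to 50 bases after a start site. CACGTG occurred in at least 1 promoter of 10 members, which is 25.0% of the 40, compared with 8.09% of the 27025 genes with a listed promoter. Counted by promoter, it was in 11 of 56, or 19.6%, compared with 7.15% of all 32851. Besides Cers6, where the first base of the hexamer was at -22, and Degs1, where it was at -43, it was found in Arsa, Cers2, Gla, Glb1, Sgms2, Sgpp2, Smpd2 and Sphk1. These 10 genes did not share a time course. Cers2, Degs1 and Smpd2 rose between P7 and P14, Cers6 fell, and Gla, Glb1 and Sphk1 passed the test in no comparison. The matches describe the letters of these windows only.

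Each gene was tested between consecutive time points, and between P28 and P1, with limma on log2(normalized count + 1) over all 15464 genes that passed the filter on low values. Fold changes are on this log2 scale with their standard error (SE), and a gene is said to have risen or fallen where its Benjamini-Hochberg adjusted p over all genes was under 0.05. A normalized count is the number of reads divided by the library's size factor. The 4 comparisons share libraries and are not independent of each other.

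Between P1 and P7, 4 members rose and 4 fell, which is 18.6% of the 43, beside 7.70% of all genes tested (3.47% higher and 4.24% lower). Cers6, Sgms2, Smpd3 and Sgpp2 rose, and Psap, Gm2a, Smpd1 and Smpd2 fell. Between P7 and P14, 11 rose and 3 fell, 32.6% of members beside 20.9% of all genes (10.8% higher and 10.0% lower). Between P14 and P28, 7 rose and 2 fell, 20.9% of members beside 14.4% of all genes (5.68% higher and 8.76% lower). Over the whole interval from P1 to P28, 15 rose and 2 fell, 39.5% of members beside 34.6% of all genes (14.6% higher and 20.0% lower). The median log2 fold change of the 43 members was -0.11, 0.47 and 0.23 in the 3 steps and 0.66 from P1 to P28, beside 0.037, -0.086, -0.122 and -0.235 for all genes. The excess of rises over falls depended on the scaling. With library totals alone in place of size factors, the median of all genes moved to -0.341, -0.349 and -0.66 in the last 3 of these comparisons. The members called became 7 rises with 4 falls from P7 to P14, 2 rises with 6 falls from P14 to P28, and 9 rises with 4 falls from P1 to P28. The share of all genes called was not counted with this scaling or the other alternatives. Member counts under them therefore describe the members only.

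In all, 23 of the 43 passed the test in at least 1 comparison and 20 in none. Psap and Smpd1 did so in all 4. The mean was highest at P28 for 24 members, at P14 for 9, at P1 for 6 and at P7 for 4, and it was lowest at P7 for 19. The heat map of all tested members shows this as values below the mean in many breakdown rows at P7 and above the mean in many rows of both arms at P28. Counts by the time point of the highest or lowest mean were not made over all genes tested. They describe the members only.

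**Figure D1:**
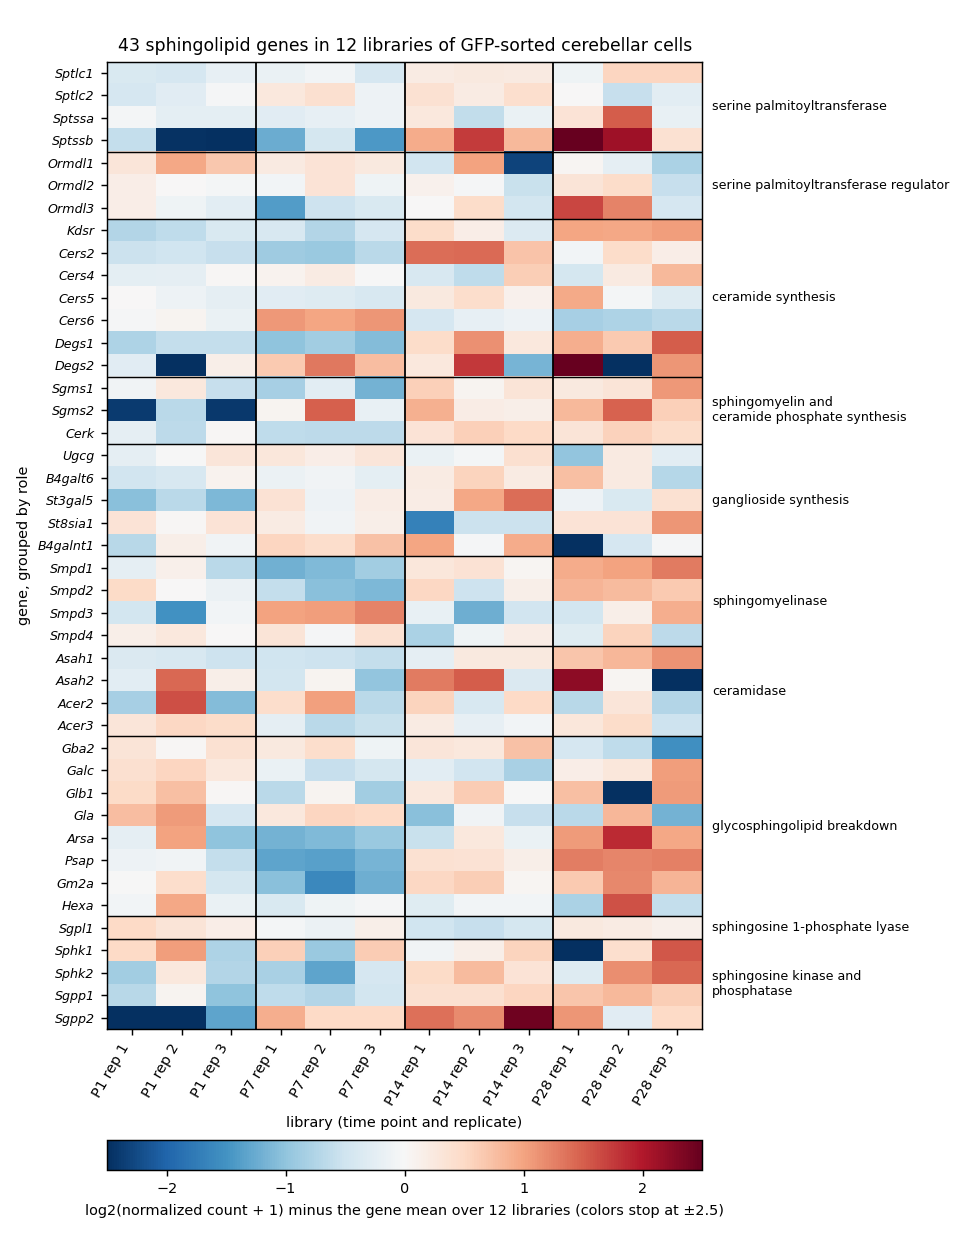
Each row is 1 of the 43 members tested, grouped by role, and each column 1 of the 12 libraries in order of age. Color gives log2(normalized count + 1) minus the gene's mean over the 12 libraries. Psap, Gm2a and Smpd1 were below their means in the P7 libraries and above them in the P28 libraries, Cers6 and Smpd3 were above theirs at P7, and Cers2 was highest at P14.

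Serine palmitoyltransferase catalyses the first and rate-limiting step of sphingolipid synthesis. Of its 4 genes, Sptlc1 and Sptssb were higher at P28 than at P1. No member of the group passed limma's test in a single step, where 1 had an unadjusted p under 0.05 from P7 to P14 (Sptssb) and 1 from P14 to P28 (Sptlc2). DESeq2 called these 2 changes and edgeR neither. Sptlc1, a core subunit, had normalized counts of 298, 289 and 334 at P1, 346, 370 and 291 at P7, 449, 458 and 455 at P14, and 362, 563 and 563 at P28. The P28 libraries were all above the P1 libraries, with a log2 fold change of 0.66 ± 0.24 (SE, adjusted p = 0.0438). This call was lost when any library except P28 replicate 1 was left out, with adjusted p between 0.0501 and 0.108, under the replicate block (adjusted p = 0.0571), with at least 10 reads asked of every library (adjusted p = 0.0508), when only P1 and P28 were fitted (adjusted p = 0.14) and with library totals alone (0.23, adjusted p = 0.458). Sptlc2, the other core subunit, had a P1 mean of 542.3 ± 75.0 (SD, n = 3), a P7 mean of 730.5 ± 128, a P14 mean of 809.9 ± 64.4 and a P28 mean of 536.9 ± 109, and its decrease after P14 of -0.61 ± 0.22 did not pass (adjusted p = 0.0761).

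The small subunits adjust the activity and chain-length preference of the enzyme. Sptssa, the more abundant of the pair per kilobase of exon, had normalized counts of 220, 194 and 194 at P1, 187, 198 and 210 at P7, 276, 148 and 204 at P14, and 292, 651 and 201 at P28. Its P28 mean of 381.6 was carried by replicate 2, and no comparison passed. Sptssb was close to the detection floor of 3 reads early on, with normalized counts of 10.5, 2.14 and 1.51 at P1 and 6.37, 11.8 and 5.43 at P7, and then 31.8, 57.1 and 29.3 at P14 and 136, 74.3 and 21.6 at P28. It passed the filter on low values mainly through the later time points. Every P14 and P28 library was above every P1 and P7 library, and the log2 fold change from P1 to P28 was 3.78 ± 0.85 (adjusted p = 0.00359). The call stayed in all alternatives that tested the gene, but the value depends on the pseudocount at such low levels and was 2.36 with a pseudocount of 10. It was 4.45 without P1 replicate 1 and 4.50 without P28 replicate 3. Per kilobase, the ratio of Sptssa to Sptssb was between 28.5 and 174 in the P1 libraries and between 2.92 and 12.6 in the P28 libraries.

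The Ormdl proteins restrain serine palmitoyltransferase. With all 12 libraries, none of the 3 passed in any of the 4 comparisons with limma, edgeR or DESeq2, and none had an unadjusted p under 0.05 with limma. Ormdl3, the most abundant of them per kilobase, had normalized counts of 232, 190 and 170 at P1, 77.2, 143 and 157 at P7, 208, 284 and 149 at P14, and 658, 484 and 153 at P28. The spread at P28 was wide, with replicate 3 at the level of P14, and without that library Ormdl3 passed both from P14 to P28 and from P1 to P28. Ormdl1 ranged from 15.2 to 161 over the 12 libraries and both extremes were at P14. Ormdl2 ranged from 67.6 to 139, and 66.7% of its exon length overlaps Dnajc14 on the other strand. As no source used here says whether the counting used strand, reads of these overlapping genes may be shared.

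Ceramide synthesis held the clearest exchange between related genes. Cers2, the ceramide synthase for very long acyl chains, rose 4.02-fold between P7 and P14 on the fitted scale, while Cers6, which prefers shorter chains such as palmitoyl, rose 2.14-fold from P1 to P7 and then fell. Cers2 had normalized counts of 1150, 1182 and 1123 at P1, 899, 870 and 1048 at P7, 4411, 4448 and 2714 at P14, and 1586, 2303 and 1866 at P28. The P14 libraries were above all others, and the P7 libraries below all others. The log2 fold change was 2.01 ± 0.20 from P7 to P14 (adjusted p = 9.67e-06), -0.99 ± 0.20 from P14 to P28 (adjusted p = 0.00656) and 0.72 ± 0.20 from P1 to P28 (adjusted p = 0.0138). The last of these was lost without P28 replicate 2 (0.58, adjusted p = 0.0501) and with library totals alone (0.28, adjusted p = 0.266), and the decrease after P14 was lost when only P14 and P28 were fitted (adjusted p = 0.0614).

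Cers6 had normalized counts of 394, 421 and 355 at P1, 853, 794 and 857 at P7, 300, 346 and 367 at P14, and 224, 235 and 250 at P28. The 3 P7 libraries agreed closely and lay above all others, and the 3 P28 libraries lay below all others. It rose by 1.10 ± 0.21 to P7 (adjusted p = 0.00473) and fell by 1.31 ± 0.21 to P14 (adjusted p = 0.000467), and both calls stayed in all alternatives. From P1 to P28 it fell by 0.72 ± 0.21 (adjusted p = 0.0162). That call was lost without P1 replicate 1 (adjusted p = 0.0506), without P1 replicate 2 (adjusted p = 0.0513) and when only P1 and P28 were fitted (adjusted p = 0.109), and the fall was larger with library totals alone (-1.15). Per kilobase of exon, Cers2 exceeded Cers6 in every library, by 8.95 to 10.1 times at P1, by 3.36 to 3.90 times at P7, by 23.6 to 46.9 times at P14, and by 22.6 to 31.3 times at P28. The ratios of the P7 libraries were thus the lowest of the 12.

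Beside the course of Cers2 stood the oligodendrocyte markers, which were also highest at P14 and lower at P28. From P1 to P7 these markers rose by a median log2 fold change of 4.39, with 9 of 10 higher. Their sums were still 22398 to 34556 at P7, beside 349451 to 397877 at P14. The log2 fold change of Cers2 from P1 to P7 was -0.30 ± 0.20 (adjusted p = 0.506). The part of the oligodendrocyte markers in the Cers2 values was not tested.

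Cers4 and Cers5, the other ceramide synthases tested, passed in no comparison. Their means stayed between 209.0 and 282.6 for Cers4 and between 325.3 and 507.1 for Cers5. Kdsr, the reductase that acts right after serine palmitoyltransferase, had normalized counts of 377, 402 and 483 at P1, 475, 378 and 471 at P7, 860, 702 and 492 at P14, and 1248, 1231 and 1297 at P28. The P28 libraries were tightly grouped above all others, with a log2 fold change of 0.91 ± 0.22 from P14 (adjusted p = 0.0158) and of 1.59 ± 0.22 from P1 (adjusted p = 9.59e-05). The latter stayed in all alternatives, and the former was lost without P14 replicate 3 (0.69, adjusted p = 0.0662), with library totals alone (0.68, adjusted p = 0.0574) and when only P14 and P28 were fitted (adjusted p = 0.0738).

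Degs1, the desaturase that introduces the double bond of ceramide, had normalized counts of 575, 652 and 647 at P1, 486, 533 and 463 at P7, 1339, 2159 and 1176 at P14, and 1830, 1539 and 2801 at P28. All 6 later libraries were above all 6 earlier ones. It rose by 1.61 ± 0.25 from P7 to P14 (adjusted p = 0.000347) and by 1.67 ± 0.25 from P1 to P28 (adjusted p = 0.000148), and both calls stayed in all alternatives. At P28 it was the most abundant synthesis member per kilobase, at 1000 ± 323 (SD, n = 3) normalized counts, beside 866 ± 163 for Cers2. These ranges overlap. Degs2, a related enzyme, was low and uneven, with normalized counts of 298, 0 and 71.7 at P28, and it passed in no comparison. A value of 0 in P28 replicate 2 allows up to 3 reads, or a normalized count of 3.538.

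Ceramide leaves this pool toward sphingomyelin through the sphingomyelin synthases and toward ceramide 1-phosphate through Cerk, the ceramide kinase. All 3 of these genes rose at some point. Sgms1, the Golgi sphingomyelin synthase, had normalized counts of 548, 704 and 393 at P1, 330, 487 and 256 at P7, 886, 615 and 730 at P14, and 696, 732 and 1231 at P28. The P14 libraries were above the P7 libraries (1.09 ± 0.30, adjusted p = 0.0196). Leaving out P7 replicate 1 or 3 or P14 replicate 1 or 3 took the adjusted p to between 0.0517 and 0.102, and library totals alone to 0.0577.

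Sgms2, the form found mainly at the plasma membrane, rose earlier. It had normalized counts of 30.8, 104 and 30.3 at P1, 174, 470 and 146 at P7, 306, 189 and 184 at P14, and 292, 462 and 250 at P28. Each later library was above each P1 library, and the log2 fold change was 2.29 ± 0.54 to P7 (adjusted p = 0.0179) and 2.79 ± 0.54 from P1 to P28 (adjusted p = 0.00124). The P28 call stayed in all alternatives. The P7 call was lost without P1 replicate 1 (adjusted p = 0.0865), without P1 replicate 3 (adjusted p = 0.066) and without P7 replicate 2 (1.77, adjusted p = 0.111). In both groups replicate 2 was the highest for Sgms2, as it was for the summed normalized counts of 8 endothelial markers, at 814, 3877 and 1151 at P1 and 2776, 10835 and 1754 at P7. In order of replicate, the endothelial sums were 5179, 5990 and 5214 at P14 and 2996, 3674 and 4453 at P28. At both of these time points the highest library was not the one highest for Sgms2. The median log2 fold change of the endothelial markers from P1 to P7 was 1.57, and none of the 8 passed. Their part in the Sgms2 values was not tested. Sgms1 was the more abundant per kilobase in all 12 libraries, by 8.57 to 22.5 times at P1 and 1.31 to 2.39 times at P7.

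Cerk had normalized counts of 364, 269 and 434 at P1, 272, 267 and 268 at P7, 534, 642 and 597 at P14, and 528, 635 and 579 at P28. It stepped up once, between P7 and P14 (1.13 ± 0.23, adjusted p = 0.00265, a call that stayed in all alternatives), and its difference from P14 to P28 was -0.03 with a 95% confidence interval from -0.52 to 0.46. From P1 to P28 it rose by 0.73 ± 0.23 (adjusted p = 0.0237). The adjusted p of that change was 0.0536 without P1 replicate 1, 0.0986 without P1 replicate 2, 0.0505 without P28 replicate 2, 0.329 with library totals alone and 0.0948 when only P1 and P28 were fitted.

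Gangliosides are made by stepwise addition of glucose, galactose and sialic acid to ceramide. Of the 5 genes of this branch, only St8sia1 passed the test, and it did so with a trough at P14. St8sia1, the sialyltransferase that makes ganglioside GD3, had normalized counts of 784, 635 and 787 at P1, 719, 586 and 692 at P7, 192, 429 and 430 at P14, and 791, 784 and 1340 at P28. The P14 libraries lay below all others. It fell by 1.01 ± 0.31 from P7 to P14 (adjusted p = 0.0295) and rose by 1.51 ± 0.31 to P28 (adjusted p = 0.00597), and P28 and P1 differed by 0.36 with a 95% confidence interval from -0.29 to 1.02. The fall to P14 rested in part on P14 replicate 1, without which it was -0.62 (adjusted p = 0.125). It was also lost without any 1 of the 3 P7 libraries, with adjusted p between 0.0508 and 0.1, and with edgeR (adjusted p = 0.0515). The rise to P28 stayed with each library left out and was lost when only P14 and P28 were fitted (adjusted p = 0.0738).

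Ugcg, the glucosylceramide synthase that opens the branch, stayed between means of 300.4 and 428.5. B4galt6, a lactosylceramide synthase and the most abundant member of the branch per kilobase when averaged over the time points, had normalized counts of 450, 477 and 666 at P1, 567, 593 and 530 at P7, 728, 929 and 725 at P14, and 1064, 737 and 385 at P28. The P28 libraries spanned the whole range of the gene and no comparison passed with all 12 libraries. B4galt6 was called from P7 to P14 when only those time points were fitted, and from P1 to P28 without P28 replicate 3. St3gal5, which makes ganglioside GM3, had normalized counts of 92.9, 119 and 87.8 at P1 and 245, 175 and 219 at P7. Those groups did not overlap, but the log2 fold change of 1.09 ± 0.37 did not pass (adjusted p = 0.0985). It passed with DESeq2 and when only P1 and P7 were fitted. Among all genes, 38.3% had P1 and P7 libraries that did not overlap. At P14 St3gal5 was at 218, 376 and 504, and at P28 at 175, 146 and 250. This decrease did not pass (-0.89 ± 0.37, adjusted p = 0.121) but was called with DESeq2 and with library totals alone. B4galnt1, which adds N-acetylgalactosamine to make the next gangliosides, had a log2 fold change of -1.63 ± 0.57 from P14 to P28 (adjusted p = 0.0697), with normalized counts of 277, 136 and 266 at P14 and 23.4, 103 and 137 at P28. It was called lower with DESeq2, with library totals alone, and without P28 replicate 2 or 3.

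Among the breakdown genes, Psap and Gm2a followed the same V-shaped course, falling from P1 to P7 and then rising. Psap encodes prosaposin, which is cut into the saposins that activate several lysosomal sphingolipid hydrolases, and Gm2a the activator that presents ganglioside GM2 to beta-hexosaminidase. Psap had normalized counts of 4438, 4608 and 3230 at P1, 1949, 1887 and 2161 at P7, 6311, 6288 and 5386 at P14, and 11874, 11318 and 11648 at P28. No 2 time points overlapped, and P7 was the lowest and P28 the highest. The log2 fold change was -1.02 ± 0.15 to P7 (adjusted p = 0.000937), 1.58 ± 0.15 to P14 (adjusted p = 6.05e-06), 0.96 ± 0.15 to P28 (adjusted p = 0.00152) and 1.52 ± 0.15 from P1 to P28 (adjusted p = 4.14e-06). These 4 calls stayed in all alternatives. Psap was the most abundant member per kilobase at each time point, from 729 ± 52.3 (SD, n = 3) at P7 to 4230 ± 102 at P28.

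Gm2a had normalized counts of 1477, 2018 and 1091 at P1, 717, 487 and 636 at P7, 2137, 2269 and 1545 at P14, and 2350, 3439 and 2672 at P28. The P7 libraries were below all others. It fell by 1.29 ± 0.24 to P7 (adjusted p = 0.00433) and rose by 1.69 ± 0.24 to P14 (adjusted p = 0.000192), and both calls stayed in all alternatives. The 0.51 ± 0.24 from P14 to P28 did not pass (adjusted p = 0.177). P28 was above P1 by 0.91 ± 0.24 (adjusted p = 0.0101), a call lost without P1 replicate 3 (0.69, adjusted p = 0.0556) and with library totals alone (0.47, adjusted p = 0.115).

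The astrocyte markers followed a similar order of time points. Of the 10, 5 fell and 2 rose between P1 and P7, 8 rose between P7 and P14, and 8 rose between P14 and P28, with median log2 fold changes of -0.72, 2.27 and 1.08. Their part in the values of Psap and Gm2a was not tested.

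**Figure D2:**
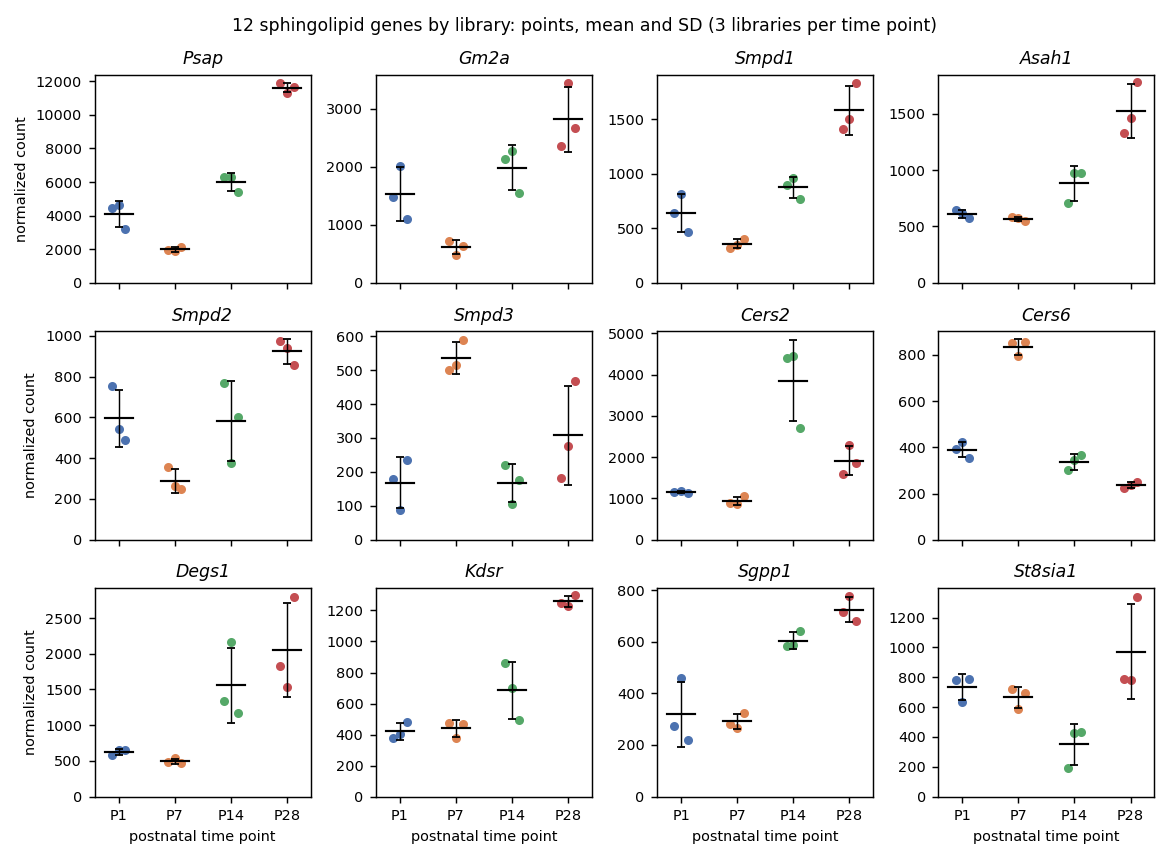
Each panel is 1 of 12 members, with the normalized count on the vertical axis and the time point on the horizontal axis. Points are libraries, and the line and bars are the mean and SD of 3 libraries. Psap, Gm2a and Smpd1 were lowest at P7, Cers6 and Smpd3 were highest there, Cers2 was highest at P14 and St8sia1 lowest there.

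Of the other genes in this group, Galc and Arsa rose in 1 comparison each. Galc, which removes galactose from galactosylceramide, had normalized counts of 425, 466 and 387 at P1, 287, 217 and 239 at P7, 269, 232 and 184 at P14, and 364, 395 and 665 at P28. Levels at P7 and P14 were below those at P1 and P28. The decrease to P7 did not pass (-0.79 ± 0.28, adjusted p = 0.123), and the rise after P14 did (1.02 ± 0.28, adjusted p = 0.0284). It was lost without P14 replicate 2 (adjusted p = 0.0591), P14 replicate 3 (adjusted p = 0.0995) or P28 replicate 3 (0.75, adjusted p = 0.0741), with library totals alone (adjusted p = 0.0682), and when only P14 and P28 were fitted (adjusted p = 0.145). Arsa, the arylsulfatase that removes sulfate from sulfatide, had normalized counts of 101, 239 and 58.3 at P1 and 248, 432 and 234 at P28. These ranges overlap, and its rise of 1.38 ± 0.51 (adjusted p = 0.0478) was lost when any library except P1 replicate 2 or P28 replicate 3 was left out, with adjusted p between 0.0514 and 0.212. Without P1 replicate 3 the change was 0.91. It was also lost with edgeR (adjusted p = 0.0704), with library totals alone (adjusted p = 0.142), without a filter on low values (adjusted p = 0.0553) and when only P1 and P28 were fitted (adjusted p = 0.116).

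Gba2, a glucosylceramidase outside the lysosome, was the one breakdown gene that fell after P14 and over the whole interval. It had normalized counts of 209, 169 and 217 at P1, 196, 225 and 154 at P7, 205, 199 and 278 at P14, and 124, 106 and 56.8 at P28. The P28 libraries were below all others, with log2 fold changes of -1.30 ± 0.37 from P14 (adjusted p = 0.0316) and -1.11 ± 0.37 from P1 (adjusted p = 0.0321). The former was lost without P7 replicate 1, without any 1 of the 3 P14 libraries and without P28 replicate 3 (adjusted p between 0.0526 and 0.11). The latter was lost without P1 replicate 1, P1 replicate 3, P7 replicate 1 or P28 replicate 3 (adjusted p between 0.0507 and 0.0997) and with edgeR (adjusted p = 0.0524), and both were lost when only the time points compared were fitted (adjusted p = 0.185 and 0.137).

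The beta-galactosidase gene Glb1, the alpha-galactosidase gene Gla and Hexa, the alpha subunit of beta-hexosaminidase, passed in no comparison. Single libraries set their spread at P28. Glb1 had 25.9 in P28 replicate 2, beside 260 and 323 in the others, while Hexa had 535 in that library, beside 102 and 116.

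Sphingomyelinases split sphingomyelin into ceramide and phosphocholine. Smpd1 and Smpd2 fell to P7 and rose to P14, while Smpd3 rose to P7 and fell to P14. Smpd1, the acid sphingomyelinase of lysosomes, had normalized counts of 639, 811 and 466 at P1, 322, 347 and 406 at P7, 901, 958 and 769 at P14, and 1412, 1500 and 1834 at P28. The P7 libraries were the lowest and the P28 libraries the highest. Smpd1 fell by 0.80 ± 0.22 to P7 (adjusted p = 0.0399), then rose by 1.29 ± 0.22 to P14 (adjusted p = 0.000816) and by 0.85 ± 0.22 to P28 (adjusted p = 0.0213), and was 1.33 ± 0.22 higher at P28 than at P1 (adjusted p = 0.000378). The fall to P7 was the least stable. It was lost under the replicate block (adjusted p = 0.0546) and without P1 replicate 1 or 2, any 1 of the 3 P7 libraries, or P14 replicate 1 or 2 (adjusted p between 0.0537 and 0.179). The rise to P28 was lost without P14 replicate 1 (adjusted p = 0.0525), without P14 replicate 3 (adjusted p = 0.0792), without P28 replicate 3 (adjusted p = 0.0534) and with library totals alone (adjusted p = 0.0638).

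Smpd2, a neutral sphingomyelinase, had normalized counts of 753, 542 and 489 at P1, 358, 262 and 248 at P7, 771, 377 and 601 at P14, and 975, 939 and 857 at P28. The P7 libraries were again below all others. It fell by 1.03 ± 0.27 to P7 (adjusted p = 0.0333) and rose by 0.97 ± 0.27 to P14 (adjusted p = 0.0215). The fall was lost without P1 replicate 1 or 2 or P7 replicate 2 or 3 (adjusted p between 0.0769 and 0.165). The rise was lost without P7 replicate 2 or 3 or P14 replicate 1 or 3 (adjusted p between 0.0672 and 0.102) and with library totals alone (adjusted p = 0.0807). From P1 to P28 the 0.66 ± 0.27 did not pass (adjusted p = 0.0767), and it was called under the replicate block and without P14 replicate 2.

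Smpd3, the neutral sphingomyelinase of the Golgi and plasma membrane, had normalized counts of 180, 86.5 and 236 at P1, 500, 516 and 589 at P7, 219, 106 and 177 at P14, and 181, 275 and 467 at P28. The P7 libraries were above all others. It rose by 1.78 ± 0.43 to P7 (adjusted p = 0.0192) and fell by 1.73 ± 0.43 to P14 (adjusted p = 0.00974). The rise was lost without P1 replicate 2 (1.37, adjusted p = 0.0953) or any 1 of the 3 P7 libraries (adjusted p between 0.0565 and 0.0848), and the fall without P14 replicate 2 (-1.43, adjusted p = 0.0528). Per kilobase, the ratio of Smpd1 to Smpd3 was 1.40 to 1.50 in the P7 libraries and 4.28 to 20.3 in the other 9. Smpd4, the last of the group, passed in no comparison, with means between 490.1 and 656.1.

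Ceramidases release sphingosine from ceramide. Of the 4, the lysosomal one rose in the last 2 steps and the others passed in no comparison. Asah1, the acid ceramidase, had normalized counts of 645, 622 and 572 at P1, 584, 575 and 547 at P7, 704, 973 and 976 at P14, and 1328, 1458 and 1786 at P28. P1 and P7 overlapped, and the P14 and then the P28 libraries lay above them without overlap. The log2 fold change was 0.62 ± 0.19 to P14 (adjusted p = 0.031), 0.79 ± 0.19 to P28 (adjusted p = 0.0145) and 1.30 ± 0.19 from P1 to P28 (adjusted p = 0.000125), and the last of these stayed in all alternatives. The rise to P14 was lost without any 1 of the 3 P7 libraries or P14 replicate 2 or 3 (adjusted p between 0.077 and 0.11) and with library totals alone (0.36, adjusted p = 0.175). The rise to P28 was lost without P14 replicate 1 (0.63, adjusted p = 0.0617), with library totals alone (adjusted p = 0.0548) and when only P14 and P28 were fitted (adjusted p = 0.0778). Unlike Smpd1 and Psap, Asah1 did not pass from P1 to P7, where its log2 fold change was -0.11 with a 95% confidence interval from -0.51 to 0.30. The difference between these genes was not tested.

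Among the other ceramidases, Acer3, an alkaline ceramidase, had normalized counts of 195, 225 and 217 at P1 and 134, 98.2 and 106 at P7, without overlap (-0.92 ± 0.36, adjusted p = 0.155). It passed with DESeq2 and when only P1 and P7 were fitted. Acer2, the Golgi form, stayed between means of 38.87 and 65.68. Asah2, the neutral ceramidase, ran from 2.70 to 450 within P28 alone.

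Sphingosine 1-phosphate is made by the sphingosine kinases, returned to sphingosine by the phosphatases Sgpp1 and Sgpp2, and destroyed for good by the lyase Sgpl1. Both phosphatases were higher at P28 than at P1, Sgpp2 rising in the first step and Sgpp1 between P7 and P14. Sgpp1 had normalized counts of 274, 461 and 219 at P1, 283, 267 and 323 at P7, 584, 588 and 642 at P14, and 715, 778 and 680 at P28. All 6 later libraries were above all 6 earlier ones. It rose by 1.05 ± 0.26 to P14 (adjusted p = 0.00964) and by 1.25 ± 0.26 from P1 to P28 (adjusted p = 0.00202). Both calls stayed in all alternatives, the latter at 0.82 with library totals alone.

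Sgpp2 had normalized counts of 7.38, 7.14 and 34.8 at P1, 165, 124 and 125 at P7, 230, 200 and 477 at P14, and 190, 71.9 and 124 at P28. The P1 libraries were below all others. It rose by 3.35 ± 0.62 to P7 (adjusted p = 0.00397), the largest change of any member in a single step, and was 3.16 ± 0.62 higher at P28 than at P1 (adjusted p = 0.00139). Both calls stayed in all alternatives, at 4.06 and 3.87 without P1 replicate 3 and at 2.63 and 2.46 with a pseudocount of 10. Sgpp1 exceeded Sgpp2 per kilobase by 4.45 to 45.7 times at P1, and the ratio of the 2 was between 0.954 and 2.08 at P7 and P14, with Sgpp2 the higher in P14 replicate 3. Of the 6 choroid plexus markers, 3 also rose over the first step, and the median log2 fold change of the 6 was 3.52. In the P7 libraries, in order of replicate, their sum was 60971, 127766 and 47993, where Sgpp2 was 165, 124 and 125. At P14 it was 109117, 63461 and 880, where Sgpp2 was 230, 200 and 477. At P28 it was 104852, 182616 and 17749, where Sgpp2 was 190, 71.9 and 124. The part of these markers in the Sgpp2 values was not tested.

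Sphk2 had normalized counts of 167, 370 and 184 at P1, 175, 123 and 229 at P7, 426, 533 and 390 at P14, and 247, 692 and 828 at P28. P14 was above P7 by 1.38 ± 0.44 (adjusted p = 0.0365) and P28 above P1 by 1.21 ± 0.44 (adjusted p = 0.045), although P28 replicate 1 lay inside the P1 range. The rise to P14 was lost without P7 replicate 1 or 2 or any 1 of the 3 P14 libraries (adjusted p between 0.0668 and 0.139) and with library totals alone (adjusted p = 0.0667). The rise over the whole interval was lost in 9 of the 12 fits that left out a library (adjusted p between 0.0523 and 0.157; it stayed without P1 replicate 2, P7 replicate 2 or P28 replicate 1), and also with library totals alone (0.77, adjusted p = 0.152), without a filter on low values (adjusted p = 0.0561) and when only P1 and P28 were fitted (adjusted p = 0.126). The exons of Sphk2 overlap those of Dbp and Rpl18 on the other strand by up to 13.0%. From P7 to P14 the mean of Dbp went from 35.2 to 120.8, and that of Rpl18 from 3702.1 to 2414.8. The part of shared reads in the Sphk2 values was not tested. Sphk1, the other kinase, was low, between 1.46 and 92.0 over all libraries, and passed in no comparison.

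Sgpl1, which cleaves sphingosine 1-phosphate irreversibly, had normalized counts of 1110, 977 and 885 at P1, 764, 709 and 867 at P7, 560, 526 and 580 at P14, and 932, 907 and 859 at P28. The P14 libraries were below all others. The decrease from P7 to P14 did not pass (-0.49 ± 0.17, adjusted p = 0.0607) but was called with DESeq2, with library totals alone, when only P7 and P14 were fitted, and without P28 replicate 2 or 3. The rise to P28 passed (0.69 ± 0.17, adjusted p = 0.0169), and P28 differed from P1 by -0.13 with a 95% confidence interval from -0.50 to 0.24. The rise stayed with each library left out, and was lost with library totals alone (0.46, adjusted p = 0.0869) and when only P14 and P28 were fitted (adjusted p = 0.0757).

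Synthesis and breakdown genes had medians of opposite sign in the first step. From P1 to P7, 4 of 17 breakdown genes fell and 1 rose, 29.4% beside 7.70% of all genes tested. Of the 17 fold changes, 14 were below 0, with a median log2 fold change of -0.79, beside 0.037 for all genes. Of the 19 synthesis genes, 2 rose (10.5%), with a median of 0.12. The synthesis median was 0.28 without P1 replicate 3 and 0.2 without P7 replicate 3. The breakdown median moved to -0.39 without P1 replicate 2, so the gap between the arms rested in part on this library. From P7 to P14, the medians were similar, 0.47 for breakdown and 0.44 for synthesis, beside -0.086 for all genes. Breakdown had 5 rises and 1 fall (35.3%) and synthesis 4 rises and 2 falls (31.6%), beside 20.9% of all genes. With library totals alone the medians of the arms were 0.21 and 0.19, and without P7 replicate 3 the synthesis median was 0.34. From P14 to P28, 5 breakdown genes rose and 1 fell, 35.3% beside 14.4% of all genes (median 0.51, and 0.27 with library totals alone). Synthesis had 2 rises and 1 fall, 15.8%, which is near the share of all genes. Its median was -0.03, beside -0.122 for all genes. The synthesis median was -0.26 with library totals alone, 0.1 with a pseudocount of 10, 0.09 without P14 replicate 2 and 0.04 without P28 replicate 1 or 2. Over the whole interval, synthesis had 7 rises and 1 fall (42.1%, median 0.67) and breakdown 5 rises and 1 fall (35.3%, median -0.13). Of all genes, 34.6% were called, with a median of -0.235. With library totals alone the medians of the arms were 0.25 and -0.57. The synthesis median was 0.54 without P1 replicate 2, 0.79 without P28 replicate 1 and 0.56 without P28 replicate 2 or 3. The breakdown median over the whole interval turned positive when P1 replicate 2 or any 1 of the 3 P28 libraries was left out (0.16 to 0.25), so its sign is not settled by these libraries. The 2 lists are described by their counts and medians only, and the difference between them was not tested.

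Counted gene by gene, the mean was lowest at P7 for 10 of 17 breakdown genes and 6 of 19 synthesis genes, and lowest at P1 for 8 synthesis genes and no breakdown gene. The same count was not made over all genes tested, so it describes these lists only. As a single figure per library, the median of the centred log2 values of the breakdown genes minus that of the synthesis genes was taken. This difference was 0.37, 0.84 and 0.06 at P1 and -0.23, -0.06 and -0.41 at P7. It was -0.06, -0.28 and -0.26 at P14, and -0.05, 0.23 and 0.28 at P28. The P1 libraries were above 0 and the P7 and P14 libraries below it, while the P28 libraries fell on both sides. P1 replicate 2 stood highest.

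**Figure D3:**
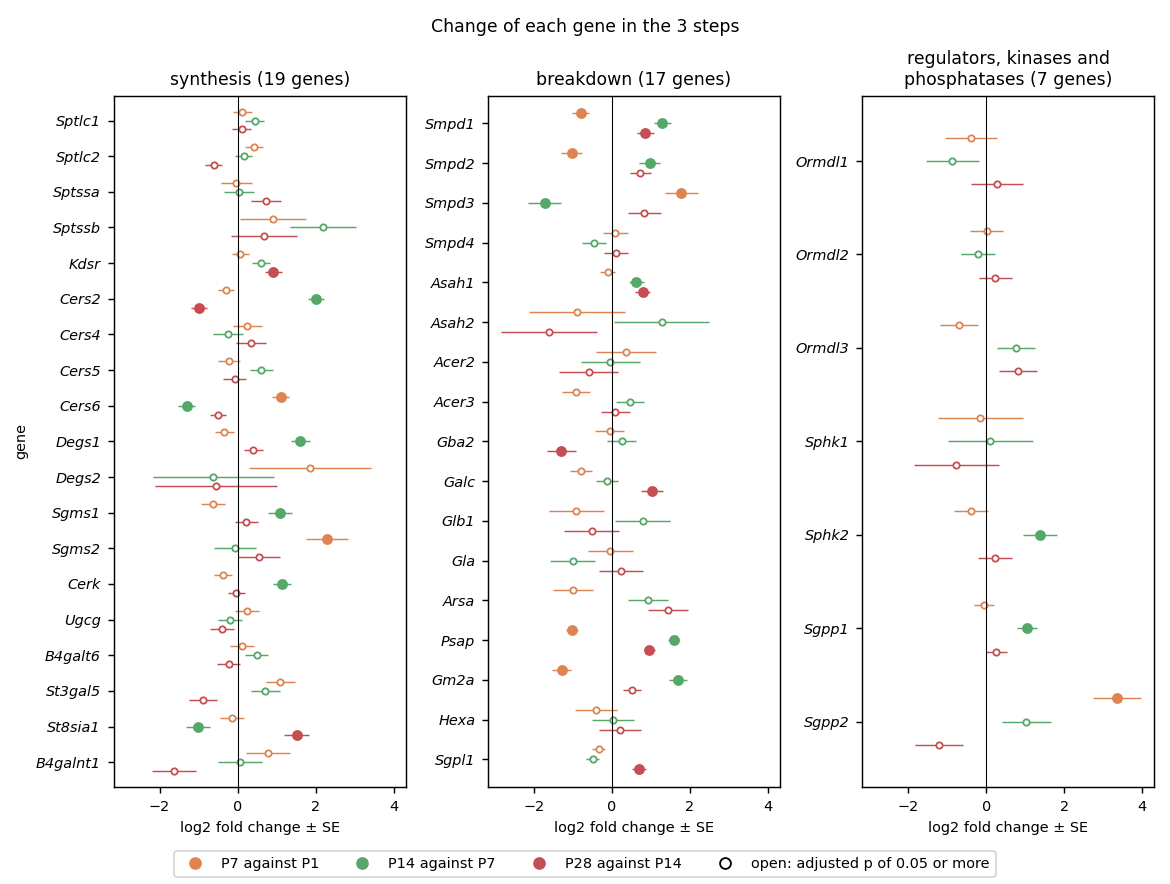
Each point is the log2 fold change of 1 gene in 1 of the 3 steps, with its SE, in panels for the 19 synthesis genes, the 17 breakdown genes and the 7 regulators, kinases and phosphatases. Filled points have an adjusted p under 0.05. From P1 to P7 most breakdown genes lie below 0 (median -0.79) and Smpd3 stands above them, while the synthesis genes lie around 0 (median 0.12).

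A further 39 genes of the pathway are no members, of which 35 were tested. From P7 to P14, 15 of them rose, 42.9% beside 10.8% of all genes. From P14 to P28, 4 rose and 7 fell, 11.4% and 20.0% beside 5.68% and 8.76% of all genes. The myelin-linked enzymes rose to P14 and fell to P28. Ugt8a, which makes galactosylceramide, had a P1 mean of 137.7 ± 13.4 (SD, n = 3), a P7 mean of 1340 ± 173, a P14 mean of 10300 ± 2550 and a P28 mean of 1760 ± 509. Its log2 fold changes in the 3 steps were 3.27 ± 0.23, 2.92 ± 0.23 and -2.56 ± 0.23 (adjusted p = 3.79e-06, 1.16e-06 and 5.81e-05). Fa2h, the fatty acid hydroxylase, and Gal3st1, the sulfotransferase that makes sulfatide, followed the same course from P7, rising to P14 (3.73 ± 0.36 and 3.13 ± 0.87) and falling to P28 (-1.93 ± 0.36 and -3.88 ± 0.87). Among the members, Cers2 alone both rose to P14 and fell to P28, by 2.01 and 0.99 on the log2 scale.

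Among the 20 other enzymes tested, 3 fell from P1 to P7, which is 15.0% beside 4.24% of all genes. Smpdl3a, a phosphodiesterase related to the acid sphingomyelinase, passed in the same direction as Smpd1 and Psap in each of the 3 steps. It had normalized counts of 2197, 2446 and 1954 at P1, 1318, 1051 and 1047 at P7, 3285, 3708 and 3099 at P14, and 4546, 6300 and 6171 at P28, with no overlap between time points. Its log2 fold changes were -0.95 ± 0.17, 1.57 ± 0.17 and 0.74 ± 0.17 in the 3 steps (adjusted p = 0.00305, 1.59e-05 and 0.0109). St6galnac5, a ganglioside sialyltransferase, fell further, from 138, 76.4 and 73.5 at P1 to 17.5, 10.5 and 17.1 at P7 (-2.57 ± 0.52, adjusted p = 0.00712), and then returned to 64.6, 106 and 86.9 at P14. Smpdl3b had the largest rise from P14 to P28 among these enzymes (3.54 ± 0.91, adjusted p = 0.0193). Its levels were low, at 8.47, 0 and 2.17 at P14 and 29.2, 51.9 and 28.4 at P28.

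Of the 12 receptors, transporters and transfer proteins tested, S1pr1, a sphingosine 1-phosphate receptor, had normalized counts of 1005, 1494 and 887 at P1, 701, 526 and 710 at P7, 3854, 4641 and 3068 at P14, and 6636, 8761 and 8145 at P28. No time points overlapped. It fell by 0.78 ± 0.22 to P7 (adjusted p = 0.0421), rose by 2.57 ± 0.22 to P14 (adjusted p = 2.44e-06) and by 1.04 ± 0.22 to P28 (adjusted p = 0.00747). S1pr5, another of these receptors, followed the oligodendrocyte markers in order of time points, at 0.615, 4.29 and 2.27 at P1, 39.8, 38.0 and 37.2 at P7, 155, 461 and 256 at P14, and 153, 50.7 and 31.1 at P28. Its rise to P7 was 3.70 ± 0.73 (adjusted p = 0.00585), from P1 values at or near the floor of 3 reads. Others of this list took different courses. Spns2 rose to P7 (2.25 ± 0.52, adjusted p = 0.0158) and fell from P14 to P28 (-2.38 ± 0.52, adjusted p = 0.00889). Gltp rose from P7 to P14 (2.08 ± 0.35, adjusted p = 0.000639) and fell to P28 (-1.27 ± 0.35, adjusted p = 0.0257).

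**Figure D4:**
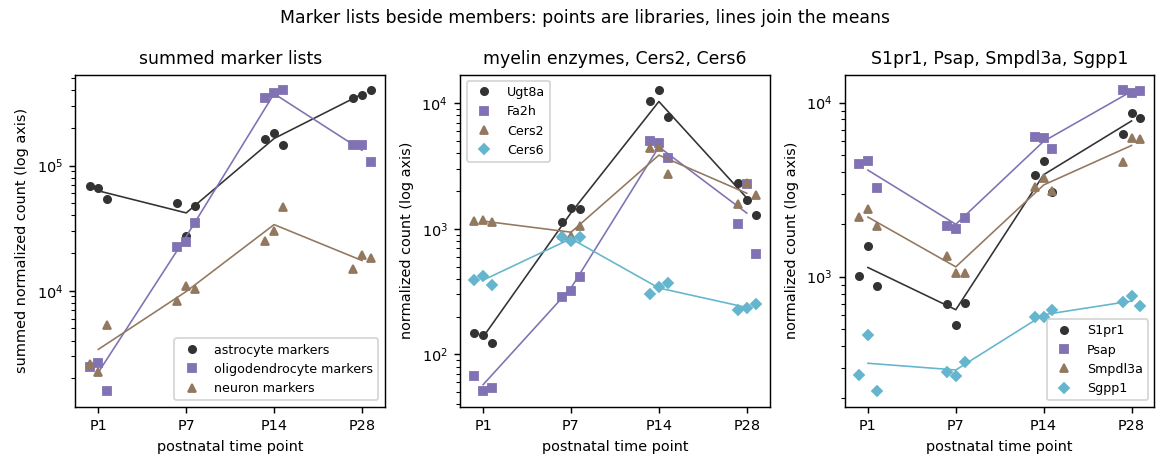
The vertical axes are normalized counts on a log scale, points are libraries and lines join the means of each time point. One panel gives the summed astrocyte, oligodendrocyte and neuron markers, one Ugt8a, Fa2h, Cers2 and Cers6, and one S1pr1, Psap, Smpdl3a and Sgpp1. Oligodendrocyte markers, Ugt8a, Fa2h and Cers2 were highest at P14, while astrocyte markers, S1pr1, Psap and Smpdl3a were lowest at P7 and highest at P28.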

How the data were processed

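RNA of GFP-sorted cerebellar cells was sequenced paired-end at P1, P7, P14 and P28, with 3 libraries each. The authors aligned reads to mm10 with STAR (version 2.5.0a per the submitters' processing notes), counted them on UCSC transcripts with GenomicAlignments and GenomicFeatures, and normalized the counts with DESeq2. Strand use and the treatment of shared reads are not given in the sources used here. The deposited signal is normalized counts, that is, counts over one size factor per library, and dividing each library by its smallest step gave whole reads for 100% of values (tolerance 0.01). These reads served for depth, floors and count-based alternatives. Floors cover counting error only, while the 95% confidence intervals of fold changes come from the limma fit and cover the spread between libraries. Columns were mapped to libraries through the labels, since all 12 column names carry P28. Of the symbols, 27 had become dates and 2 occurred more than once.

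Tests used limma (version 3.58.1, in R 4.3.3). log2(value + 1) was fitted with group means and a variance trend over all 12 libraries, for the 15464 genes that reached a value of 10 in 3 or more of them. edgeR (version 4.0.16), run on the recovered reads as an alternative, called 8, 13, 9 and 15 members in the 4 comparisons, and DESeq2 (version 1.42.0) called 10, 17, 14 and 18. The other alternatives were library totals or TMM as scaling, pseudocounts of 0.1 and 10, no filter, a minimum of 10 reads in all libraries, a fit of only the compared time points, a replicate block, an unadjusted p under 0.05 with a log2 fold change over 0.75 as the call, and each library left out. Single values of 3 against 3 libraries have no exact permutation p below 0.1, so none is given. Exon lengths for values per kilobase came from GENCODE M21 on GRCm38, the build of mm10, which matched 44 of 44 members by symbol. The members, lists and alternatives were chosen with earlier results of these data known. Values by library were given for up to 5 members with the largest rise and fall in each comparison, those called in 3 or more comparisons and the most abundant of each role, 22 in all. Other members are given by values where they passed a test or stand beside one that did. Of the other pathway genes, those named are the myelin-linked enzymes and some of those with large changes in a step. Smpdl3b, Spns2 and Gltp, and the values of St3gal5, Acer3, Glb1 and Hexa, were added after they were seen.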

Additional observations from a re-analysis of the deposited data

How the results depend on the processing

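The text reports 48 member changes that passed the test. Of these, 25 stayed past the threshold with each library left out, 26 in every other alternative and 22 in all alternatives that tested the gene, and none changed direction. Sptssb was left untested where 10 reads were asked of every library. The number of members called from P14 to P28 was 9, but 14 with DESeq2 (8 higher, 6 lower), and the cause was not tested. When only the time points compared were fitted, the number went from 8 to 11 for P1 to P7, from 14 to 18 for P7 to P14, from 9 to 2 for P14 to P28 and from 17 to 11 for P1 to P28, and the cause was not tested. Besides the gains given with the genes above, some alternatives called Kdsr, Cers5 and Sptssb from P7 to P14, Galc from P1 to P7, Arsa, Cers6 and Sptlc2 from P14 to P28, and Degs2, Gla, Sgpl1, Smpd3, Sptssa, St3gal5 and Ugcg from P1 to P28. Leaving out a library gave 4 to 8 members from P1 to P7, 10 to 16 from P7 to P14, 5 to 10 from P14 to P28 and 11 to 17 from P1 to P28. The lowest of these counts came without P7 replicate 2, without any 1 of P7 replicates 1 to 3 or P14 replicate 1, without P14 replicate 3 and without P1 replicate 1, in that order of comparisons. From P1 to P7 the count was 5 without P1 replicate 1 or 2 or P7 replicate 3. Library totals alone ended 15 of the 48 calls.

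The labels do not say whether libraries with the same replicate number belong together. Over 18 pairs of same-numbered libraries the correlation of deviations from the time point means ran from -0.029 to 0.139, with 1 above 0.1. Correlations this low do not exclude a shared origin. With the replicate block, 7, 14, 9 and 17 members were called, and 2 calls were lost, Smpd1 from P1 to P7 and Sptlc1 from P1 to P28, and 1 was gained, Smpd2 from P1 to P28. Depth limits Sptssb, Sphk1, Degs2 and Sgpp2 at their lowest values, where a few reads set the level.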
